A study of Mus musculus with 8 samples.

Results

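The coat of the lipid droplet was examined through 7 genes, which were chosen by symbol: the 5 perilipins (Plin1, Plin2, Plin3, Plin4 and Plin5) and 2 genes of the CIDE family, Cidea and Cidec. All 7 are among the 11234 genes that the authors' table lists, and all 7 passed the filter on low values that left 8764 genes for testing. The values come from RNA-seq of interscapular brown adipose tissue of male C57BL/6 mice aged 12 weeks. The mice had spent 2 weeks at 29 °C, a housing temperature that asks little heat production of brown fat, and were killed at 5 PM, zeitgeber time 10. The 4 knockout (KO) libraries, replicates 4, 5, 19 and 20, are labelled Adiponectin-Cre with floxed HDAC3. The 4 control libraries, replicates 11, 12, 13 and 14, are labelled HDAC3 floxed, with no Cre, so that the effect of Cre itself and of the deletion cannot be told apart. The adiponectin promoter drives Cre in adipocytes, and other cells of the tissue keep the gene. The labels do not say whether the libraries come from different mice, and p-values here therefore reflect library-to-library spread, which may be technical.

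A lipid droplet is a core of triglyceride and sterol ester under a single layer of phospholipid, and the proteins on that layer decide how the store is reached. Perilipins share a family fold and differ in where they are made. PLIN1 is the main coat of adipocyte droplets and holds back lipolysis until it is phosphorylated, PLIN2 coats droplets in most cell types, PLIN3 moves from the cytosol to young droplets, PLIN4 is a coat of adipocytes and muscle, and PLIN5 belongs to oxidative tissues and ties droplets to mitochondria. CIDEA and CIDEC gather where droplets touch and pass lipid into the larger droplet. CIDEA is typical of brown adipocytes and CIDEC, also called FSP27, of the large single droplet of white adipocytes.

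Libraries held 13619308 to 17986134 reads as implied by the values, of which 2738475 to 4170688 fell on listed genes. That part was 21.4% to 25.0% in KO libraries and 17.1% to 20.1% in control libraries. Levels are given as RPKM (reads per kilobase of gene model, relative to the library's total reads) scaled by TMM, a factor for differences in library composition. Hdac3 averaged 3.29 ± 0.588 RPKM in KO libraries and 7.64 ± 0.511 RPKM in control libraries (SD, n = 4 each; limma, adjusted p = 4.34e-05). Of the 8764 genes tested, 19.4% were higher and 15.9% were lower in KO (limma, adjusted p under 0.05). These shares depend on scaling. By library total alone 31.9% were higher and 7.17% lower, and by the sum over listed genes 12.4% were higher and 30.2% lower. The median log2 fold change of all genes moved by 0.13 and by -0.12 under these scalings. The count of reads behind the members was high, with 461 to 14097 reads per library and gene.

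Promoter windows from RefSeq on GRCm38.p6, matched by symbol, are shown for the 4 members that changed the most and for Plin3, which did not pass the test. Each runs 5′ to 3′ from 250 bases before an annotated start to 10 bases after it. Capitals mark AGGTCA on either strand, the half-site that nuclear receptors such as PPAR and REV-ERB bind, and CACGTG, the E-box of the clock and of SREBP. Plin5 and Cidec each have 2 annotated starts, of which the upstream one is shown.
Plin2, chr4:86670050-86670309, minus strand: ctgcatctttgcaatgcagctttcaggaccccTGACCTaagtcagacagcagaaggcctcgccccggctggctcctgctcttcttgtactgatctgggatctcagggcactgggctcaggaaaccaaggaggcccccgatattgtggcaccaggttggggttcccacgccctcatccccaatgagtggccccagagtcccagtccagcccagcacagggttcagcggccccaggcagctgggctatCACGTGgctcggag
Cidec, chr6:113435751-113436010, minus strand: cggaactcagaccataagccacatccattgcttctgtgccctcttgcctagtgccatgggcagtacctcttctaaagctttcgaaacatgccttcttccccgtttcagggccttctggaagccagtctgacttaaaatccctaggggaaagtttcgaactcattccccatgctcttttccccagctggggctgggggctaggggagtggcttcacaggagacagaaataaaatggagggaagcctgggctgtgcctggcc
Plin5, chr17:56117539-56117798, minus strand: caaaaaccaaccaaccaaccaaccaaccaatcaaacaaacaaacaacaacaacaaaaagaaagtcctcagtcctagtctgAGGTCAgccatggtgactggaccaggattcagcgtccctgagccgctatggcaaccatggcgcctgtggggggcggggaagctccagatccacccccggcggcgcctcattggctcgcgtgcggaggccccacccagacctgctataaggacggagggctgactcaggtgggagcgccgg
Plin1, chr7:79732767-79733026, minus strand: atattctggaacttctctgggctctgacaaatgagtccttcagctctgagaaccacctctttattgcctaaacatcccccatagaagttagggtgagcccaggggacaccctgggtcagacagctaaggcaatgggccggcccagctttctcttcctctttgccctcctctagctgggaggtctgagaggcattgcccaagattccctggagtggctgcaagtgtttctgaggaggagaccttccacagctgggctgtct
Plin3, chr17:56290502-56290761, minus strand: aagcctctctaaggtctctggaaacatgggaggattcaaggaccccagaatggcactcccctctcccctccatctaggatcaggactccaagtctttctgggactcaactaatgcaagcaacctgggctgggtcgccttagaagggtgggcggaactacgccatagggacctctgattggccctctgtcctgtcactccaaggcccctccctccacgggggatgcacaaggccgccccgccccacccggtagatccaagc

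The search covered windows of 300 bases (250 before and 50 after the start) of 6 members, in 8 windows. The full PPAR element, AGGTCA and again AGGTCA with a single base N between them, on either strand, was in none of these windows, and in 0.0396% of all 32851 windows of the same length. The half-site AGGTCA was in the Plin2 window, with its first base at position -218 on the opposite strand, and in both Plin5 windows, at -170 of the upstream start and 14 of the other. It lies in 16.3% of all windows. The E-box CACGTG was in the Plin2 window alone among these members, at -4, and in 7.15% of all windows. A match describes letters in the window, and a window without one says nothing of a factor's binding elsewhere.

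Of the 7 members 5 were higher in KO and none was lower (limma, adjusted p under 0.05), where 19.4% of all tested genes were higher and 35.3% passed in either direction. Their median log2 fold change was 0.80, against 0.0074 for all tested genes. The members that rose were Plin2, Cidec, Plin5, Plin1 and Cidea, and in each of these every KO library lay above every control library, as in 18.8% of all tested genes (34.8% for either direction). Plin3 and Plin4 did not pass and their genotypes overlapped. The authors' deposited table lists log2 fold changes (KO over control) of 0.79 for Plin1, 2.97 for Plin2, -0.28 for Plin3, 0.061 for Plin4, 0.95 for Plin5, 0.26 for Cidea and 1.92 for Cidec. Its FDR was under 0.05 for the same 5 members, and 17.0% of the listed genes were higher at that FDR. In bulk tissue, more adipocytes and more RNA per adipocyte cannot be told apart.

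**Figure D1:**
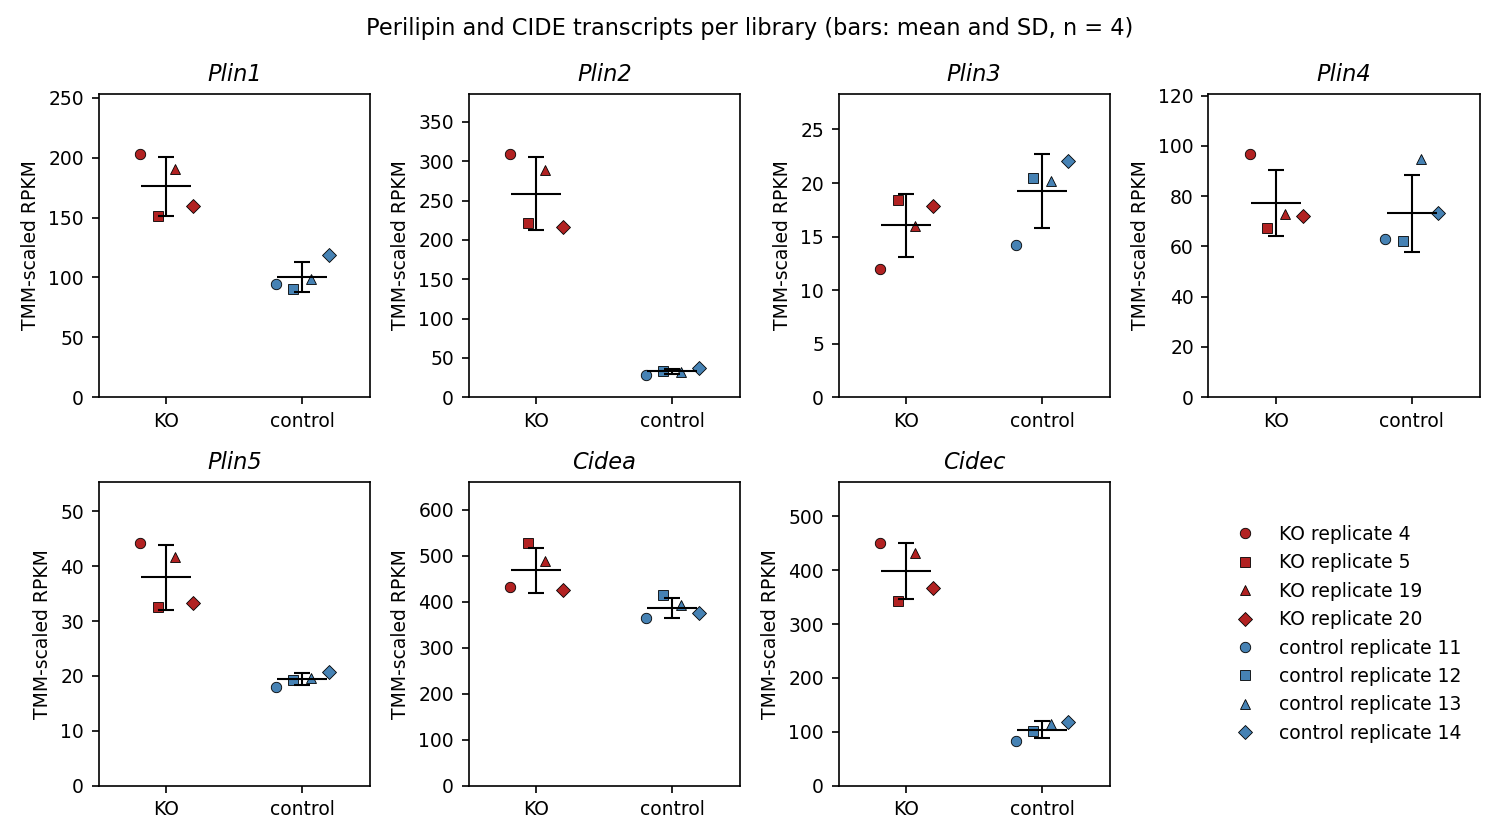
TMM-scaled RPKM of the 7 members, a panel each, with every axis starting at 0; points are libraries, bars the mean and SD of the 4 libraries of each genotype, KO left of control. Plin2 lies at 217 to 309 RPKM in KO and 28.1 to 36.5 RPKM in control libraries, while the genotypes overlap for Plin3 and Plin4.

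Plin2, the coat protein found on droplets of most cell types, had the largest change of the group. It stood at 309, 221, 289 and 217 RPKM in KO replicates 4, 5, 19 and 20, against 28.1, 33.6, 32.5 and 36.5 RPKM in control replicates 11, 12, 13 and 14. The lowest KO library was thus several times the highest control library. The KO mean was 7.93-fold the control mean, with a log2 fold change of 2.94 ± 0.13 (SE; limma, adjusted p = 7.65e-07), place 2 of all tested genes. That rank is on log2(value + 1), which understates changes of low genes. Ehhadh, in place 4, had a KO mean 9.66-fold its control mean. Elovl3, in place 11 and near 0 in control libraries, had a KO mean 551-fold its control mean. By mean level per length Plin2 was in place 37 of the listed genes in KO and in place 425 in control libraries.

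Plin1, the adipocyte coat that guards against lipolysis, stood at 203, 152, 191 and 160 RPKM in KO replicates 4, 5, 19 and 20, against 94.7, 90.0, 98.5 and 119 RPKM in control replicates 11, 12, 13 and 14. The groups did not overlap, although KO replicate 5 and control replicate 14 lay closest to each other. Its mean was 1.75-fold higher in KO, a log2 fold change of 0.80 ± 0.12 (SE; limma, adjusted p = 0.000617). Plin5, the perilipin of oxidative tissues, stood at 44.3, 32.6, 41.7 and 33.3 RPKM in the KO libraries, in the same order of replicates, against 18.0, 19.3, 19.7 and 20.8 RPKM in the control libraries. Every KO library exceeded the highest control library by more than the whole range of the controls. The mean was 1.95-fold higher in KO, a log2 fold change of 0.92 ± 0.11 (SE; limma, adjusted p = 0.000133).

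Plin4 and Plin3 did not pass the test. Plin4, a coat of adipocytes and muscle, stood at 96.7, 67.4, 73.1 and 72.0 RPKM in KO replicates 4, 5, 19 and 20, against 62.8, 62.0, 94.8 and 73.2 RPKM in control replicates 11, 12, 13 and 14. A single library was high in each genotype, KO replicate 4 and control replicate 13, and the rest lay close together. The log2 fold change was 0.085, with a 95% interval of -0.25 to 0.42 (limma, adjusted p = 0.696). Its sign turned with the sum over listed genes as library size and without KO replicate 4. Plin3, which binds young droplets, stood at 12.0, 18.4, 16.0 and 17.8 RPKM in the KO libraries, against 14.2, 20.5, 20.2 and 22.1 RPKM in the control libraries. Its lowest values were KO replicate 4 and control replicate 11. The log2 fold change was -0.25, with a 95% interval of -0.59 to 0.10 (limma, adjusted p = 0.242), an interval that runs across 0.

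By mean level per length the CIDE genes were the most abundant of the group in KO libraries. In control libraries Cidea led, while Cidec and Plin1 lay within each other's spread, at 104 ± 15.6 and 101 ± 12.8 RPKM (SD, n = 4). Cidec, which enlarges droplets, stood at 451, 344, 433 and 368 RPKM in KO replicates 4, 5, 19 and 20, against 83.7, 101, 114 and 119 RPKM in control replicates 11, 12, 13 and 14. All KO libraries lay far above all control libraries. The mean was 3.82-fold higher in KO, a log2 fold change of 1.93 ± 0.13 (SE; limma, adjusted p = 5.60e-06), and its level was in place 21 of all listed genes in KO and in place 134 in control libraries. Cidea, the CIDE protein of brown adipocytes, stood at 432, 528, 489 and 425 RPKM in the KO libraries, against 365, 413, 392 and 375 RPKM in the control libraries. Its genotypes did not overlap, but the gap between KO replicate 20 and control replicate 12 was narrow. The mean was 1.21-fold higher in KO, a log2 fold change of 0.27 ± 0.092 (SE; limma, adjusted p = 0.0411). With the sum over listed genes as library size it did not pass (log2 fold change 0.11, limma, adjusted p = 0.36). Leaving out any of KO replicates 5 and 19 or control replicates 11, 13 and 14 also ended the call, with limma adjusted p of 0.064 to 0.103. Cidea was in place 17 by level in KO and in place 14 in control libraries.

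**Figure D2:**
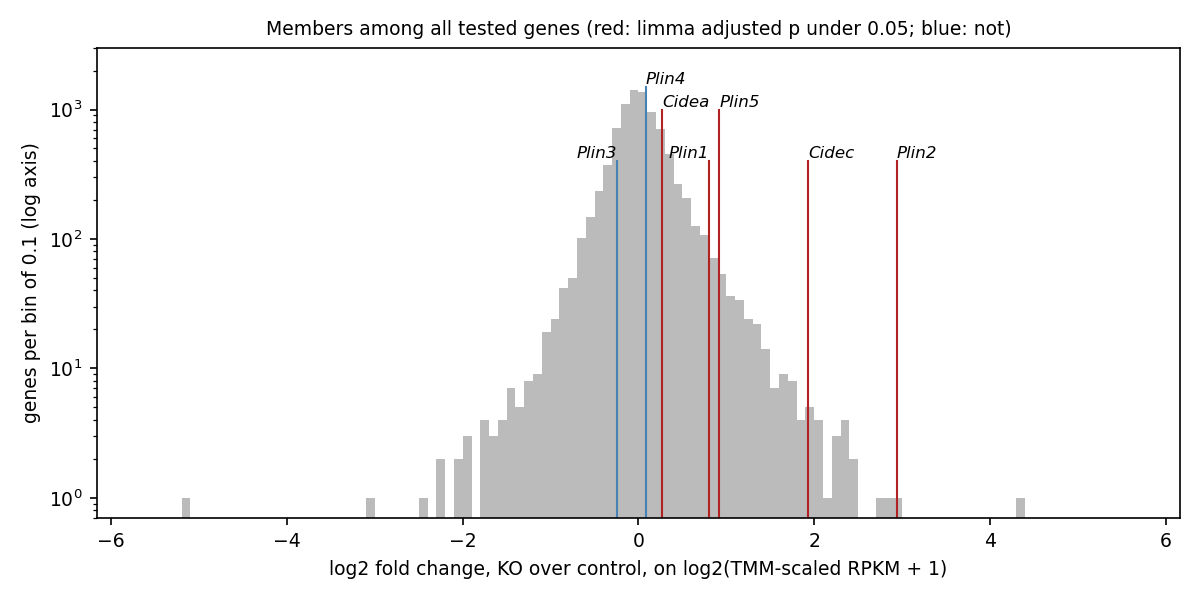
Histogram of the log2 fold change (KO over control, on log2(TMM-scaled RPKM + 1)) of all 8764 tested genes, with the number of genes on a log axis; lines mark the 7 members, red where the limma adjusted p was under 0.05 and blue where it was not. Plin2 at 2.94 and Cidec at 1.93 lie in the right tail, and Plin4 at 0.085 and Plin3 at -0.25 lie in the body of the distribution.

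Since the perilipins did not change alike, the make-up of the coat transcripts differed between genotypes. The perilipin total averaged 566 ± 85.1 RPKM in KO and 245 ± 27.4 RPKM in control libraries (SD, n = 4 each), a 2.31-fold higher level. As a share of that total, which needs no scaling between libraries, Plin2 held 46.5%, 45.0%, 47.4% and 43.4% in KO replicates 4, 5, 19 and 20, against 12.9%, 14.9%, 12.2% and 13.4% in control replicates 11, 12, 13 and 14. It was thus the leading perilipin in every KO library, while Plin1 led in every control library. The Plin2 share averaged 45.6% ± 1.73 in KO and 13.4% ± 1.13 in control libraries (SD; exact two-sided permutation test over 70 splits, p = 0.0286, which no result of this design can go below).

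The other 4 perilipins held smaller shares of RPKM in KO, and since the shares of a library sum to 100 they are not independent of Plin2. Plin1 held 31.1% ± 0.595 in KO and 41.1% ± 3.19 in control libraries. Plin4 held 13.7% ± 1.18 in KO and 29.8% ± 4.03 in control libraries, and Plin3 2.93% ± 0.904 in KO and 7.84% ± 1.07 in control libraries. The Plin5 share moved least, at 6.70% ± 0.0873 in KO and 7.97% ± 0.534 in control libraries. Errors are SD with n = 4, and for each of the 5 shares the exact two-sided permutation p was 0.0286, before and after Benjamini-Hochberg adjustment over the 5, as all KO libraries lay on one side of all control libraries. With any single KO library left out, the exact permutation p of the Plin5 share was 0.0571, although the genotypes stayed apart. Counted in reads and not per length, where the long Plin4 gene model of 5755 bases weighs more, Plin1 held 24.4% in KO and 25.6% in control libraries (exact permutation p = 0.429), and Plin5 held 5.59% in KO and 5.29% in control libraries (exact permutation p = 0.371). The shifts of Plin2, Plin3 and Plin4 kept their direction and p there.

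**Figure D3:**
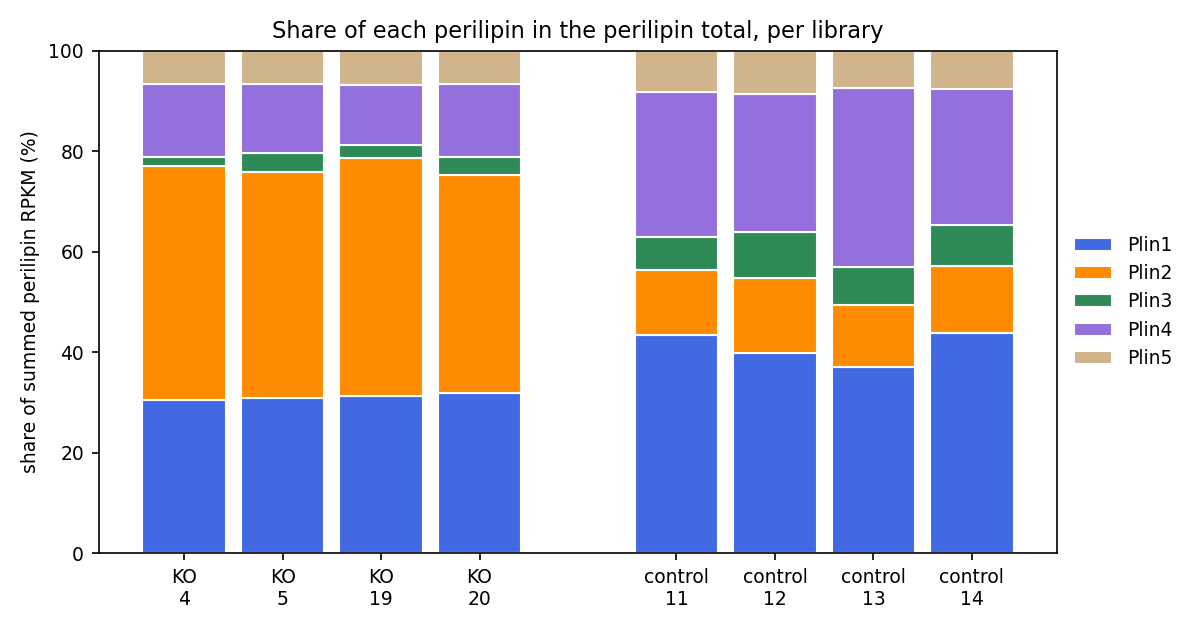
Stacked bars of the share of each perilipin in the summed perilipin RPKM (percent), a bar per library, with the 4 KO libraries left of the 4 control libraries. Plin2 takes 43.4% to 47.4% of the total in KO and 12.2% to 14.9% in control libraries.

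Ratios within a library, which likewise need no scaling, set members against each other in 6 pairs. Plin2 per Plin1 was 1.52, 1.46, 1.52 and 1.36 in KO replicates 4, 5, 19 and 20, against 0.296, 0.373, 0.330 and 0.306 in control replicates 11, 12, 13 and 14. The ratio was 4.50-fold higher in KO (geometric means; exact permutation test, two-sided, p = 0.0286). Cidec per Plin1 was 2.22 to 2.30 in KO and 0.884 to 1.15 in control libraries, a narrow band in each genotype, and 2.19-fold higher in KO (exact permutation p = 0.0286). Plin4 and Plin3 per Plin1 were lower in KO, with log2 differences of -0.72 and -1.07 (exact permutation p = 0.0286 each), although without control replicate 12 the Plin3 ratio had a log2 difference of -0.98 and an exact permutation p of 0.0571.

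Plin5 per Plin1 was 0.218, 0.215, 0.219 and 0.209 in KO replicates 4, 5, 19 and 20, against 0.190, 0.215, 0.200 and 0.175 in control replicates 11, 12, 13 and 14. The ranges overlapped at control replicate 12, and the log2 difference of 0.15 did not pass (exact permutation test, two-sided, p = 0.0571). Without that library the ranges parted (log2 difference 0.20, exact permutation p = 0.0286). For the CIDE pair, Cidea per Cidec was 0.958, 1.54, 1.13 and 1.16 in KO replicates 4, 5, 19 and 20, against 4.36, 4.10, 3.45 and 3.16 in control replicates 11, 12, 13 and 14. The pair was thus closer in level per length in every KO library than in any control library (log2 difference -1.67, exact permutation p = 0.0286). Cidea exceeded Cidec in every control library and in KO replicates 5, 19 and 20, but not in KO replicate 4. Adjusted over the 6 pairs by Benjamini-Hochberg, the exact permutation p was 0.0343 for the 5 ratios at 0.0286 and 0.0571 for Plin5 per Plin1. Since 0.0286 is the smallest value possible, the ratios cannot be ranked by p.

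**Figure D4:**
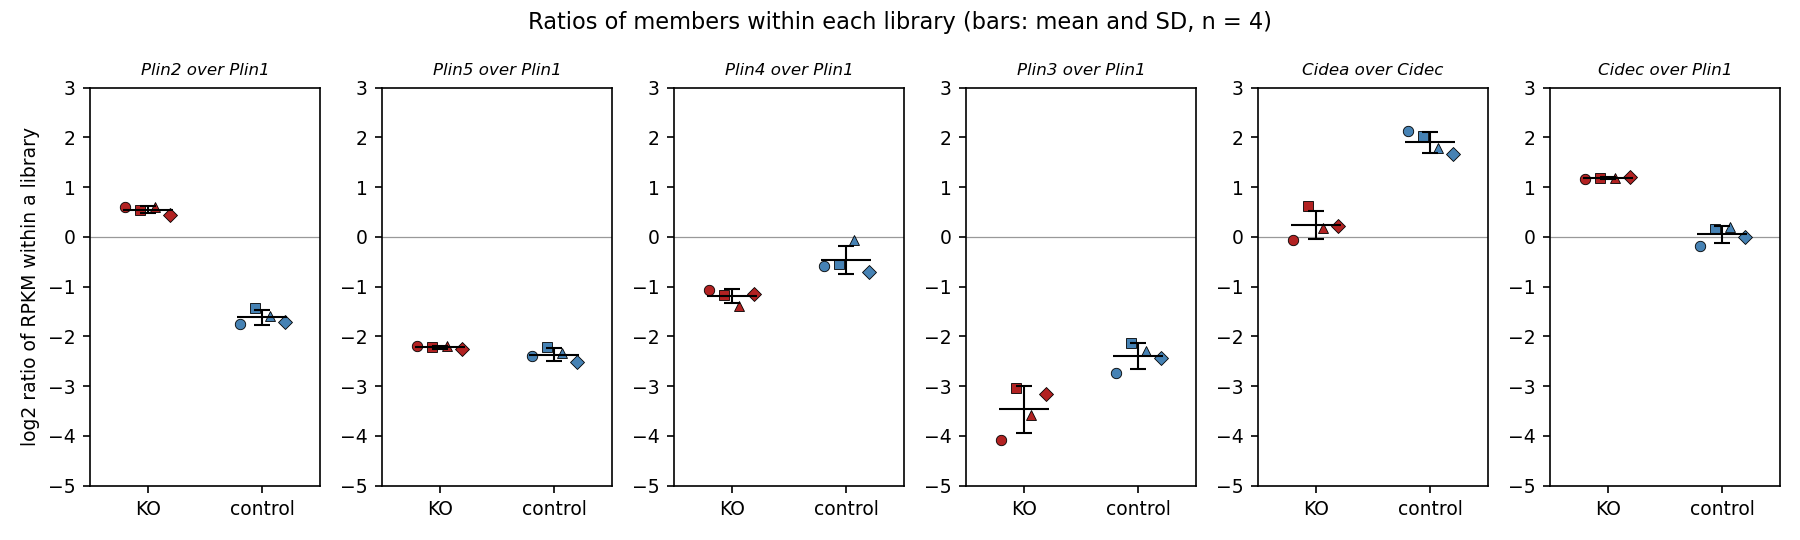
Log2 ratio of the RPKM of 2 members within each library, a panel for each of the 6 pairs, KO left of control; points are libraries, bars the mean and SD, and the line at 0 marks equal levels. Plin2 over Plin1 lies above 0 in the KO libraries and below 0 in the control libraries, and Plin5 over Plin1 overlaps between genotypes.

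Within the KO group most but not all members shared their highest libraries. Replicate 4 was highest and replicate 19 second for Plin1, Plin2, Plin4, Plin5 and Cidec. For Cidea the highest was replicate 5, and for Plin3 replicate 4 was the lowest. The summed level of 10 adipocyte markers, most of it Fabp4, had the order 4, 19, 20 and 5, at 6795, 6081, 5838 and 5241 RPKM. That is the order of Plin1, Plin4, Plin5 and Cidec in KO libraries. Hdac3 did not follow it, at 2.66, 3.92, 3.62 and 2.93 RPKM in KO replicates 4, 5, 19 and 20. In control libraries the marker sum had the order 14, 12, 13 and 11. Plin2 and Plin3 had that order there, while Plin1, Plin4, Plin5, Cidea and Cidec did not. The coefficient of variation of the members ran over 10.4% to 18.2% in KO and 5.49% to 20.8% in control libraries.

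By Pearson's r of log2 levels over all 8 libraries, which mostly reads the genotype difference, the genes most like Plin2 were Ddt (0.998), Fabp4 (0.998) and Ephx2 (0.996), and those most like Cidec were Txn1 (0.998), Itga7 (0.997) and Lipe (0.996). After each genotype's mean was taken away, those nearest to Plin2 over the same 8 libraries were Tmem120a (0.980), Picalm (0.978) and Plin5 (0.976). Those nearest to Cidec were then Plod3 (0.959), Lgals1 (0.959) and Timm10 (0.954). Without that step the single nearest gene was Dolk for Plin1 (0.996), Fbxw2 for Plin5 (0.994) and Nmi for Cidea (0.996), and lower values were the highest for Plin4 (Matn2, 0.938) and Plin3 (Hist1h4f, 0.937). With so few libraries and so many genes, such values are a description only.

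Position was compared through RefSeq gene neighbours, by name. Plin4 and Plin5 are next to each other on chromosome 17, and Plin5 rose while Plin4 did not pass the test. Of 12 listed genes that flank the members, 10 were tested, 2 were higher in KO and none was lower, a share of higher genes near the 19.4% of all tested genes. Pex11a, a peroxisome division gene next to Plin1, stood at 3.27 ± 0.335 RPKM in KO and 1.97 ± 0.289 RPKM in control libraries (SD, n = 4; limma, adjusted p = 0.00105). Impa2, an inositol phosphatase next to Cidea, stood at 6.64 ± 1.12 RPKM in KO and 3.53 ± 0.499 RPKM in control libraries (SD, n = 4; limma, adjusted p = 0.000646). The gene models of Plin4 and Hdgfrp2 overlap, as do those of Cidea and B430212C06Rik. Plin2 overlaps Gm12551 and Cidec overlaps Gm52871, neither of which is among the listed genes, so their levels could not be compared. No source used here gives the strand setting of the counting, so shared reads could not be assigned. Hdgfrp2 stood at 4.54 RPKM in KO and 4.60 RPKM in control libraries and B430212C06Rik at 1.40 RPKM in KO and 1.06 RPKM in control libraries, far under their partners.

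Genes of droplet formation rose more often than they fell. Of 16 in the list 15 were tested, and 8 rose and 3 fell (limma), where 19.4% of all tested genes rose and 15.9% fell. Their median log2 fold change was 0.47, against 0.0074 for all tested genes. By library total alone 11 of them rose and 0 fell, where 31.9% of all tested genes rose and 7.17% fell. When a library was left out, 8 rose in each case and 0 to 2 fell. Bscl2, which encodes seipin, the protein that shapes droplets at the endoplasmic reticulum, stood at 22.3 ± 2.79 RPKM in KO and 10.2 ± 1.13 RPKM in control libraries. Dgat2, which makes triglyceride, stood at 507 ± 52.5 RPKM in KO and 298 ± 37.8 RPKM in control libraries. Lpcat3, which sets the acyl chains of membrane phospholipids, stood at 14.2 ± 2.43 RPKM in KO and 4.40 ± 0.279 RPKM in control libraries, and Lpcat1 at 1.92 ± 0.0582 RPKM in KO and 1.02 ± 0.199 RPKM in control libraries. Their limma adjusted p was at most 0.000614 (SD, n = 4 each).

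Genes listed for lipolysis and its control, not all of which act at the coat, rose in part. Of 9, 5 rose and none fell (limma; median log2 fold change 0.39), where 19.4% of all tested genes rose and 15.9% fell. By library total alone 7 of them rose and 0 fell, where 31.9% of all tested genes rose and 7.17% fell. Abhd5, the activator that PLIN1 holds at rest, stood at 10.1 ± 2.51 RPKM in KO and 4.95 ± 0.36 RPKM in control libraries. Mgll, monoglyceride lipase, stood at 54.3 ± 13.4 RPKM in KO and 25.3 ± 2.75 RPKM in control libraries. Pnpla8, a calcium-independent phospholipase, stood at 18.95 ± 1.10 RPKM in KO and 12.0 ± 0.679 RPKM in control libraries, and Lipe, hormone-sensitive lipase, at 140 ± 3.33 RPKM in KO and 107 ± 3.21 RPKM in control libraries. Their limma adjusted p was at most 0.00113 (SD, n = 4). Pnpla2, the lipase that ABHD5 activates, which was named after its values were seen, stood at 184 ± 30.2 RPKM in KO and 165 ± 8.11 RPKM in control libraries and did not pass (limma, adjusted p = 0.362). Its direction turned with the sum over listed genes as library size, and it passed with the library total alone.

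The other surface proteins of droplets had no common direction. Of 19 in the list 17 were tested, and 3 rose and 2 fell (median log2 fold change 0.054), with 6 up and 1 down by library total alone, and 1 up and 5 down by the sum over listed genes. Under TMM these counts lie near the shares of all tested genes. The gene 1110057K04Rik, now named Ldah, a droplet hydrolase, stood at 4.71 ± 0.415 RPKM in KO and 2.91 ± 0.23 RPKM in control libraries. Vps13a, a lipid transfer protein, stood at 3.19 ± 0.444 RPKM in KO and 4.93 ± 0.492 RPKM in control libraries (SD, n = 4; limma, adjusted p at most 0.00204 for both genes). Aifm2, a ubiquinone reductase on droplets, stood at 40.7 ± 2.23 RPKM in KO and 32.6 ± 1.30 RPKM in control libraries (limma, adjusted p = 0.00571), and Faf2, which guides degradation at droplets, at 2.92 ± 0.0845 RPKM in KO and 2.32 ± 0.213 RPKM in control libraries (limma, adjusted p = 0.0149). Neither passed with the sum over listed genes as library size.

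Among known regulators of coat genes, 4 of 17 rose and 4 fell (median log2 fold change 0.057), with 6 up and 2 down by library total alone, and 4 up and 5 down by the sum over listed genes. These counts lie near the 19.4% higher and 15.9% lower of all tested genes. Among receptors through which perilipin genes are known to be induced, Pparg and Ppara were not among those that rose. Ppard, at 0.613 RPKM in KO and 0.662 RPKM in control libraries, lay under the filter and has no test. Whether these receptors took part in the changes of the members was not tested. Pparg stood at 45.0 ± 8.05 RPKM in KO and 48.9 ± 1.73 RPKM in control libraries (limma, adjusted p = 0.399), with a sign that turned under the library total alone. Ppara stood at 21.9 ± 2.90 RPKM in KO and 27.8 ± 3.38 RPKM in control libraries (limma, adjusted p = 0.0415), a fall that did not pass with the library total alone. Both were named after their values were seen. Their partner Rxra stood at 5.69 ± 0.832 RPKM in KO and 2.97 ± 0.337 RPKM in control libraries (limma, adjusted p = 0.000303), and Nrip1, a corepressor that acts on Cidea, at 4.76 ± 0.29 RPKM in KO and 2.02 ± 0.26 RPKM in control libraries (limma, adjusted p = 1.44e-05). Srebf1, the driver of lipid synthesis genes, rose to 61.8 ± 8.02 RPKM in KO, against 18.2 ± 3.54 RPKM in control libraries (limma, adjusted p = 1.11e-05). Ppargc1a, a coactivator of the thermogenic programme, fell to 0.977 ± 0.161 RPKM in KO, against 2.21 ± 0.401 RPKM in control libraries (limma, adjusted p = 0.000524).

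Of 24 other known PPAR target genes 19 were tested, and 10 rose and none fell (limma; median log2 fold change 0.39). With the sum over listed genes as library size, 9 were up and 2 down. Of all tested genes 19.4% rose and 15.9% fell, or 12.4% and 30.2% with that sum. Ehhadh, an enzyme of peroxisomal oxidation, stood at 26.4 ± 12.2 RPKM in KO and 2.73 ± 0.727 RPKM in control libraries. Fabp4, the adipocyte fatty acid carrier, stood at 3985 ± 393 RPKM in KO and 1698 ± 59.8 RPKM in control libraries, and Lpl, the lipase that takes up lipid from blood, at 370 ± 47.2 RPKM in KO and 140 ± 5.72 RPKM in control libraries. These 3 passed (SD, n = 4; limma, adjusted p at most 5.71e-05).

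Markers of cell types moved beside the coat genes, and their part in the changes was not tested. The counts below stand beside 19.4% of all tested genes that rose and 15.9% that fell (limma). By library total alone these shares were 31.9% and 7.17%, and by the sum over listed genes 12.4% and 30.2%. Of 10 adipocyte markers 7 rose and none fell (some, such as Fabp4 and Lipe, are in the lists above too), and their summed level was 5241 to 6795 RPKM in KO and 2626 to 3018 RPKM in control libraries, 2.14-fold higher. Fabp4 alone made up most of that sum, at a mean of 3985 RPKM in KO and 1698 RPKM in control libraries. Pparg, Cebpa and Slc2a4 did not pass the test. Macrophages carry PLIN2 on their droplets. Of their 12 tested markers 11 rose and 0 fell, Lyz2 to 38.3 ± 1.21 RPKM in KO, against 21.1 ± 2.32 RPKM in control libraries. The sum of the 13 listed was 95.7 to 112 RPKM in KO and 45.5 to 61.0 RPKM in control libraries, 1.88-fold higher. None of these 13 was at 0 in all libraries. Of 12 skeletal muscle markers, a tissue with PLIN4 and PLIN5, the 2 listed (Myl1 and Mb) summed to 10.3 to 13.98 RPKM in KO and 11.3 to 26.6 RPKM in control libraries. Neither of them passed the test. Their sum was highest in control replicate 13, which among controls was also highest for Plin4, and likewise for Lep, G0s2 and Col1a1. Plin5 was highest among controls in replicate 14, at 20.8 RPKM. Of 12 endothelial markers none rose and 2 fell, against 1 up and 0 down by library total alone, and 0 up and 6 down by the sum over listed genes, and of 10 fibroblast markers 2 rose. Of 9 brown adipocyte markers tested 1 rose and 5 fell, with a summed level of 694 to 790 RPKM in KO and 919 to 1266 RPKM in control libraries. Ucp1, the uncoupling protein that makes the heat, stood at 4.01 ± 2.90 RPKM in KO and 159 ± 40.3 RPKM in control libraries (limma, adjusted p = 3.65e-06). Of 4 white adipocyte markers tested 1 rose and 1 fell, against 2 up and 1 down by library total alone, and 1 up and 2 down by the sum over listed genes. Cidea, itself a brown adipocyte transcript, was left out of these lists.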

How the data were processed

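The submitters' processing notes name TopHat2, featureCounts, edgeR and build mm9, with no tool versions. Values deposited by the authors are, per the file headers, RPKM for each library and, for each gene, the log2 fold change between genotypes, mean log2 CPM, p-value and FDR. Their fold change has a positive sign where KO is higher. Whole reads were recovered from RPKM for 100% of values (tolerance 0.001 reads, after 20 genes were corrected for a shared factor).

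RPKM was divided by TMM factors (trim 0.3 of log ratios, 0.05 of levels) and tested as log2(value + 1) with limma 3.58.1 in R 4.3.3 (trend, two-sided, Benjamini-Hochberg over all genes, threshold 0.05) on the 8764 genes whose mean reached 1 RPKM. Folds on this scale understate changes of low genes. The method was also run on simulated counts scaled by TMM alone, so that run does not address the choice of scaling. Its outcome is not reported here. Shares and ratios were tested by exact permutation over 70 splits. Tables used pandas 2.3.3 and numpy 2.4.6, figures matplotlib 3.10.9, all on Python 3.11.15. Intervals are at 95%.

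Members, gene lists, promoter motifs and tests were chosen with earlier results of these data known. Named list genes are up to 4 per list with the smallest adjusted p, of which 1 is not reported here. Alternatives were RLE factors, the library total alone, the sum over listed genes, a pseudocount of 0.1, no filter, limma voom on the recovered reads, shares of reads or of all 7 members, 1 RPKM added to ratios, and leaving out each library. Build GRCm38.p6 differs from mm9, so its coordinates serve only the promoter sequences. No promoter of Cidea is shown.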

Additional observations from a re-analysis of the deposited data

Results flagged for a closer look

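Among 136 groups of 4 libraries, 5 held a library far from the other 3 of its genotype, where chance gives about 6.8; none concerned a perilipin, a CIDE gene, a share or a ratio. Elovl3, a fatty acid elongase of brown fat, stood at 11.03 RPKM in KO replicate 19 against 2.55 to 2.78 RPKM in the other KO libraries. In control libraries Elovl3 stood at 0.0347 RPKM in replicate 14 and was listed at 0 in the other 3. Dcn, a matrix proteoglycan, stood at 29.0 RPKM in KO replicate 19, with 36.4 to 37.7 RPKM in the other KO libraries. Lep stood at 27.7 RPKM in control replicate 13, with 12.3 to 14.8 RPKM in the other controls. Impa2 stood at 4.28 RPKM in control replicate 11, with 3.25 to 3.31 RPKM in the other controls. G0s2, which is not among these 5, stood at 127 RPKM in control replicate 13, with 31.0 to 43.8 RPKM in the other controls.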

How the results depend on the processing

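The rises of Plin1, Plin2, Plin5 and Cidec passed with RLE factors, the library total alone, the sum over listed genes, a pseudocount of 0.1, no filter, limma voom and each library left out, with log2 fold changes of 0.73 to 0.88, 2.85 to 3.02, 0.84 to 0.99 and 1.83 to 2.00 when a library was left out. Cidea did not: it fell short with the sum over listed genes (0.11), and ranged over 0.21 to 0.32 without a library. Plin4 turned to -0.075 with that sum and ranged over -0.026 to 0.21 without a library, the lowest without KO replicate 4. Scaled by library total alone, 2796 genes were higher and 628 lower. By the sum over listed genes 1087 were higher and 2651 lower, and by TMM 1703 and 1391. With limma voom on the recovered reads, 1773 were higher and 1455 lower. Counted in reads, the share difference (KO minus control) was -1.20 points for Plin1 and 0.30 for Plin5; over all 7 members it was -1.42 and -0.0058. The Plin5 share difference ranged over -1.46 to -1.07 without a library, and the log2 ratio differences over 0.10 to 0.20 for Plin5 and -1.21 to -0.86 for Plin3, each per Plin1. The log2 fold change of Pparg was 0.043 with the library total alone and that of Pnpla2 was -0.022 with the sum over listed genes. The cause of these shifts was not tested. No paired analysis was possible because the genotypes share no replicate number. The sampling depth of members leaves little counting error, and the 4 libraries a genotype limit precision.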
